A study of Mus musculus with 8 samples.

Results

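The R-spondin, Lgr and ubiquitin ligase genes were examined in satellite cells, the stem cells of skeletal muscle, that had been made to overexpress Hoxa9. They were the receptors Lgr4, Lgr5 and Lgr6, the secreted ligands Rspo1, Rspo2 and Rspo3, and the membrane ubiquitin ligases Znrf3 and Rnf43. They were chosen by gene name, as every non-control probe assigned to 1 of these 8 genes, of 34859 distinct gene names on the array. This gave 10 probes, with 2 each for Lgr5 and Lgr6 and 1 for each of the other genes.

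The donors of the cells were C57BL/6J mice, 3 to 4 months old, whose hindlimb muscle was the source; the cells were sorted, kept in growth medium overnight and transduced with a lentivirus. The control group carried integrated eGFP cDNA, the other group integrated Hoxa9-eGFP cDNA, and in both the eGFP-positive cells were sorted 5 days later. Each group comprised 4 samples, numbered 1 to 4 by experiment, each on a one-colour Agilent array. Both groups therefore shared the sort, the culture and the viral transduction, and the labels name neither the promoter that drives the transgene nor whether a sample came from 1 animal or a pool. The p-values therefore measure the spread between these samples, which may be technical, and the number of arrays limits the precision. Hoxa9, a homeobox factor, helps set positions along the body and limb axes in the embryo, and the comparison asks which transcripts differed when it was overexpressed.

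R-spondins bind Lgr receptors together with Znrf3 or Rnf43. These ligases otherwise mark Frizzled receptors for removal from the cell surface, and their clearance with the R-spondin and Lgr leaves the cell more responsive to Wnt. Lgr5 is best known as a marker of intestinal stem cells, and Wnt signalling takes part in the differentiation of satellite cells during muscle repair.

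Because the paired probes of Lgr5 and of Lgr6 gave different readings, the letters that separate them are shown first. Each probe is 60 bases long, and its first 30 bases, 5′ to 3′, were as follows, all in lower case since no stretch was singled out.
Lgr5 A_55_P2126192: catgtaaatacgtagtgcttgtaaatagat
Lgr5 A_52_P30169: acctctagtgcttatatagaaacttgtgtg
Lgr6 A_52_P75777: gtctctgttctacatatttggatctgacaa
Lgr6 A_52_P616580: tggagaagagctcctgcgactccacccaag

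On the mm9 build the Lgr5 probes lay at chr10:114887403-114887462 (A_55_P2126192, designed on a RefSeq mRNA) and chr10:114900686-114900745 (A_52_P30169, designed on an Ensembl transcript), both on the minus strand and 13223 bases apart. The Lgr6 probes lay at chr1:136880538-136880597 (A_52_P75777, designed on a GenBank cDNA clone) and chr1:136883782-136883841 (A_52_P616580, designed on a RefSeq mRNA), on the minus strand and 3184 bases apart. The probes of the other genes were on chr2:109853567-109853626 (Lgr4), chr4:124686270-124686329 (Rspo1), chr15:42852727-42852786 (Rspo2), chr10:29172930-29172989 (Rspo3), chr11:5180918-5180977 (Znrf3) and chr11:87548958-87549017 (Rnf43). No mm9 annotation was used here, so exon, intron and UTR are not given. No pair of the 10 probes shared a run of more than 8 letters, and their GC content was 35% to 55%.

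All levels below are log2 of the scanner signal relative to the array's own 75th percentile, so 0 is that percentile. All differences are log2 values of Hoxa9-eGFP minus eGFP, and a gene is called when its adjusted p is under 0.05 (limma, Benjamini-Hochberg over 27110 genes). A probe entered the test when it was well above background, as the scanner software judged it, on at least 4 of the 8 arrays.

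All 3 Lgr receptors and Znrf3 were higher with Hoxa9, Rspo1 did not pass the test, and Rspo2, Rspo3 and Rnf43 were too dim to be tested. Of the 10 probes 6 entered the test, and 4 of the 5 genes they stand for were called higher, in a comparison in which 7.83% of all genes were called higher, 7.42% lower and 15.2% in either direction. Each of these 4 had at least 3 eGFP arrays well above background. Lgr4 and Znrf3 had 4 and would have entered on those alone, while Lgr5 and Lgr6 had 3 and needed the Hoxa9 arrays to enter. In the same 4 genes every Hoxa9 array lay above every eGFP array, which held for 11.1% of all genes tested. In these bulk samples a change in the share of cells of a type and a change in RNA per cell cannot be told apart.

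**Figure D1:**
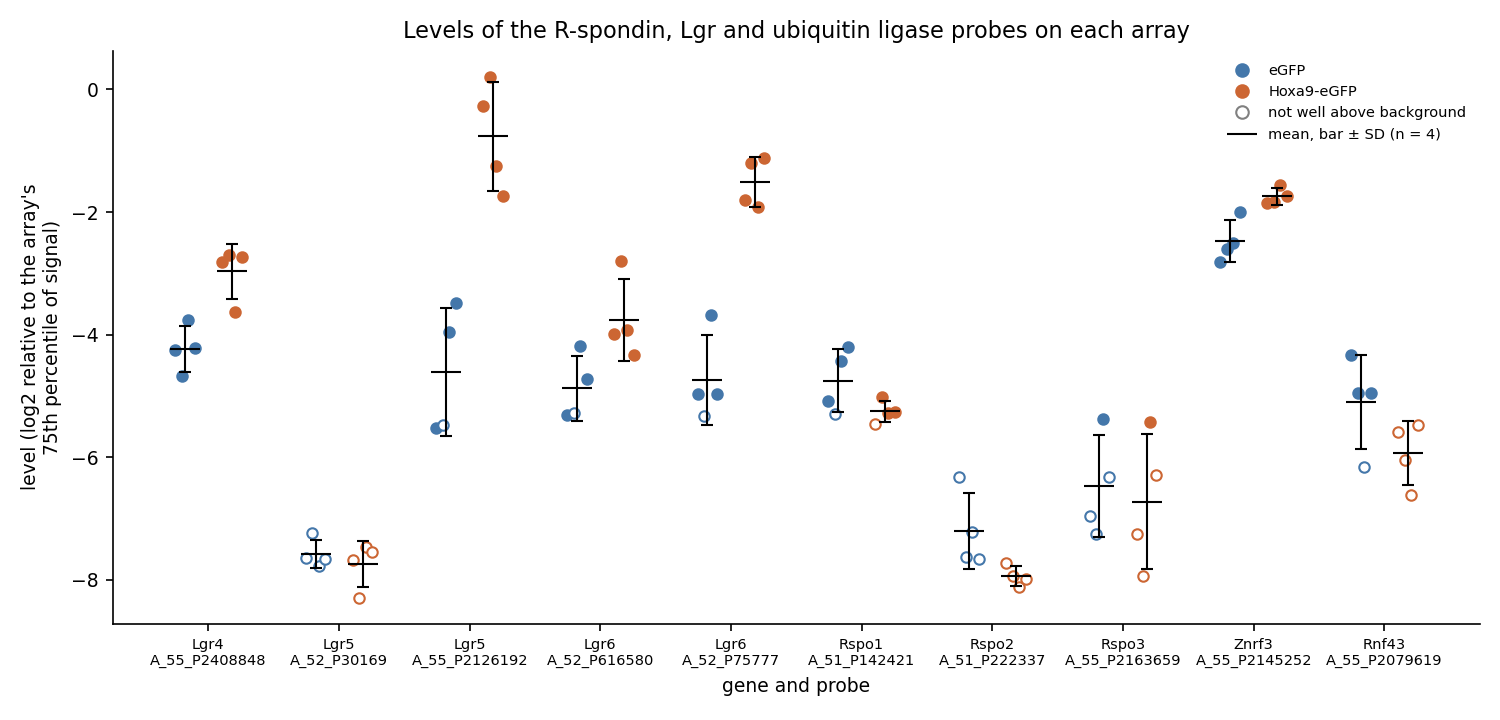
Level of each of the 10 probes on each array (y axis, log2 relative to the array's 75th percentile of signal), with eGFP arrays in blue and Hoxa9-eGFP arrays in orange, in replicate order from left to right; open points were not well above background, and black marks are the mean ± SD (n = 4). Between the groups there is a clear gap for the brighter Lgr5 and Lgr6 probes and a narrower one for Lgr4 and Znrf3, while Lgr5 A_52_P30169 and Rspo2 have open points throughout.

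Overexpression of Hoxa9 itself was read first. Hoxa9 probe A_55_P2066103 rose from -0.47 ± 0.45 (SD, n = 4) to 5.51 ± 0.21, a difference of 5.98, whereas probe A_55_P1979768, also assigned to Hoxa9, fell from -1.69 to -3.43. The arrays carried 59305 non-control spots each, of which 69.6% to 77.5% were well above background and none was saturated. The label was checked against 8 muscle progenitor genes (Pax7, Myf5, Myod1, Des, Cdh15, Itga7, Cdh2 and Chrna1), all of which were well above background on every array. Their summed signal was 451 to 583 times the array's 75th percentile in eGFP and 317 to 341 times in Hoxa9-eGFP. Of the 8 genes 6 were called lower, where 7.42% of all genes were, namely Pax7, Myf5, Itga7, Cdh15, Cdh2 and Chrna1, and Des and Myod1 were not called. Pax7, the satellite cell transcription factor, fell by 1.30 (adjusted p = 0.00401, limma), and Myod1, the myogenic determination factor, differed by -0.23 (adjusted p = 0.479, limma).

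Lgr5, a receptor for all R-spondins, was measured by A_55_P2126192 at -5.52, -5.47, -3.95 and -3.48 on eGFP arrays 1 to 4, and at -0.28, 0.21, -1.25 and -1.74 on Hoxa9 arrays 1 to 4. In signal this was 14.3, 15.2, 32.8 and 40.9 scanner units against 488, 614, 238 and 143. The groups did not overlap, and the spread within each was wide: eGFP arrays 3 and 4 were the higher of the controls, while Hoxa9 arrays 3 and 4 were the lower of their group. On eGFP array 2 the probe was not well above background, and on the other 7 arrays it was.

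The difference for Lgr5 was 3.84 ± 0.60 (SE), a 14.3-fold rise with a 95% interval of 5.56 to 36.9 (adjusted p = 0.00345, limma), and 87 of all genes tested had a larger one. All 4 same-numbered pairs of arrays went the same way, with differences of 5.24, 5.68, 2.70 and 1.74 in pairs 1 to 4. Within slides 1, 2 and 3 the difference was 3.76, 3.92 and 2.22, and with the slide as a block it was 3.40. With normexp background correction, which adds an offset to every signal, the fold was 4.63 rather than 14.3, and the gene was still called.

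The other Lgr5 probe, A_52_P30169, did not show this rise. It ran from -7.77 to -7.24 on the eGFP arrays and from -8.29 to -7.46 on the Hoxa9 arrays, and it was not well above background on any of the 8. No fold is given for it, and the rise of Lgr5 rests on the probe designed on the RefSeq mRNA.

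Lgr6, the third R-spondin receptor of the family, was measured by A_52_P75777 at -4.96, -5.33, -3.67 and -4.97 on the eGFP arrays and at -1.80, -1.21, -1.92 and -1.12 on the Hoxa9 arrays. The lowest Hoxa9 array exceeded the highest eGFP array, and eGFP array 3 stood above the other controls. Of the eGFP arrays only array 2 was not well above background. The difference was 3.23 ± 0.37 (SE), a 9.36-fold rise with a 95% interval of 5.17 to 16.9 (adjusted p = 0.000879, limma), and 156 genes had a larger one.

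The 4 pairs differed by 3.16, 4.13, 1.75 and 3.86, and the 3 slides by 4.03, 2.17 and 3.06, with 3.09 for the slide as a block. Normexp correction brought the Lgr6 fold to 3.17, and the mean of its probes gave a difference of 2.17. Lgr6 was called under both.

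The second Lgr6 probe, A_52_P616580, stood at -5.31, -5.28, -4.19 and -4.72 on the eGFP arrays and at -4.00, -2.79, -3.92 and -4.33 on the Hoxa9 arrays. Hoxa9 array 4 fell below eGFP array 3, so the groups overlapped, though the Hoxa9 array was the higher in 4 of 4 pairs. The difference of 1.11 ± 0.38 (SE) did not pass the test over all 40773 probes kept (adjusted p = 0.10, limma; 6.82% of these probes were called higher and 13.5% in either direction). Its 95% interval in fold was 1.18 to 3.96. The difference was larger by 2.11 at A_52_P75777 than at A_52_P616580 (exact permutation test over samples, two-sided, p = 0.0286, adjusted p = 0.04 over 7 comparisons). Within the 4 pairs, where no p can be under 0.125, that p was 0.125 (exact permutation). Both probes of Lgr6 were thus higher in every pair, and they differed in size.

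Lgr4, the member of the family expressed across many tissues, was measured at -4.25, -4.68, -3.76 and -4.22 on the eGFP arrays and at -2.81, -2.70, -3.63 and -2.73 on the Hoxa9 arrays, with all 8 well above background. Hoxa9 array 3 stood far below the other 3 of its group and only 0.13 above eGFP array 3, its same-numbered control. The difference was 1.26 ± 0.27 (SE), a 2.39-fold rise with a 95% interval of 1.55 to 3.70 (adjusted p = 0.0162, limma).

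The other pairs of Lgr4 differed by 1.44, 1.98 and 1.49. Slides 1 to 3 gave 1.74, 1.01 and 0.58, and the slide as a block gave 1.16. The call of Lgr4 was lost when same-numbered arrays were treated as pairs in a block (adjusted p = 0.0609, limma) and with normexp correction (difference 0.53, adjusted p = 0.0645, limma).

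**Figure D2:**
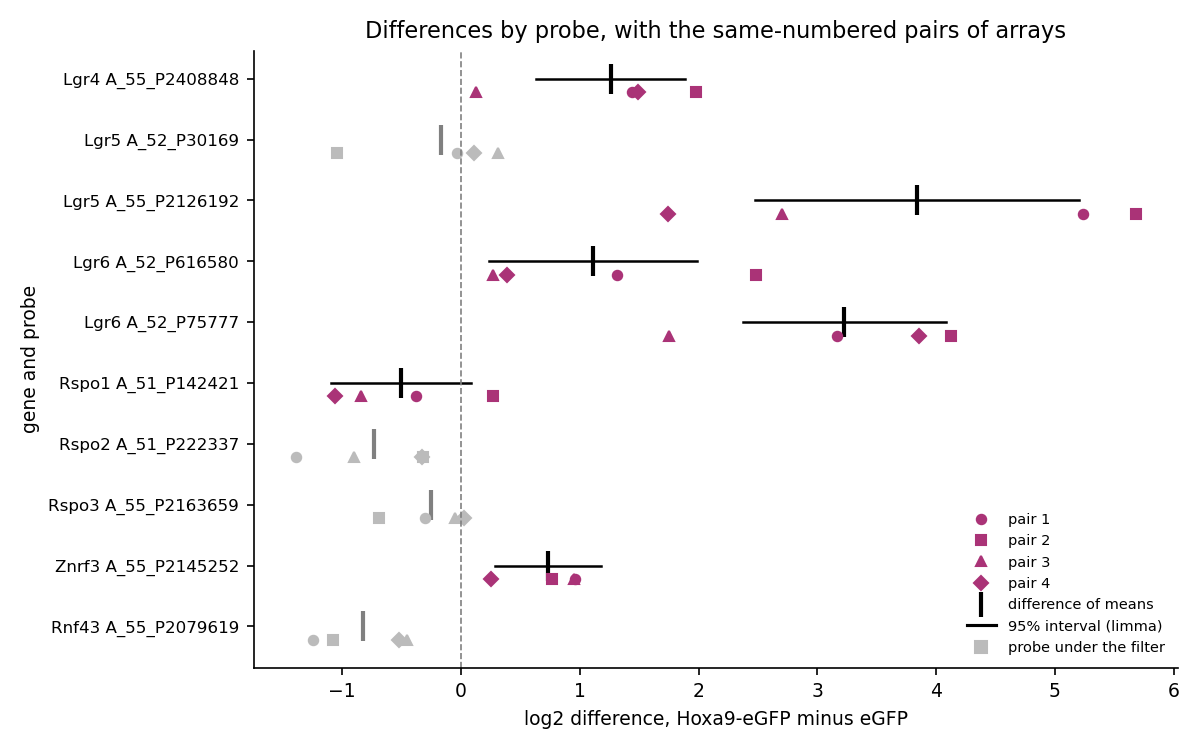
Difference of each probe on the x axis (log2, Hoxa9-eGFP minus eGFP): the upright mark is the difference of means, the line its 95% interval (limma), and the symbols the 4 same-numbered pairs of arrays, with probes under the filter in grey and without an interval. Every pair lies above 0 for Lgr4, Lgr5 A_55_P2126192, both Lgr6 probes and Znrf3, while Rspo1 has 1 pair above 0 and 3 below.

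At the probe that stood for each gene, the rises of the receptors were of unequal size. Against Lgr4, the rise of Lgr5 was larger by 2.58 and that of Lgr6 by 1.97 on the log2 scale. Against Znrf3, Lgr5 rose by 3.11 more and Lgr6 by 2.49 more. Each of these 4 comparisons gave the smallest p that 4 samples against 4 allow (exact permutation test, two-sided, p = 0.0286, adjusted p = 0.04 over the 7). With labels exchanged only within the same-numbered pairs, a check added after the values were seen, each of the 4 went 1 way in all 4 pairs and gave p = 0.125 (exact permutation), the smallest that 4 pairs allow, so none can pass there. Lgr5 and Lgr6 differed by 0.61 (adjusted p = 0.457, exact permutation) and Lgr4 and Znrf3 by 0.53 (adjusted p = 0.20, exact permutation), which shows neither a difference nor its absence. All pairs of called genes and the Lgr6 probes were compared, a choice made after the values were seen. The order holds for these probes only. The other Lgr6 probe rose by 1.11, less than Lgr4 at 1.26, and differed from the first by 2.11. The other Lgr5 probe was well above background on no array. The sizes also depend on the background correction. With normexp the differences were 2.21 for Lgr5, 1.66 for Lgr6, 0.53 for Lgr4 and 0.51 for Znrf3, and the comparisons were not repeated there.

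The ligands gave no call. Rspo1, the R-spondin that drives ovarian differentiation, stood at -5.08, -5.29, -4.43 and -4.21 on the eGFP arrays and at -5.45, -5.02, -5.27 and -5.26 on the Hoxa9 arrays. The Hoxa9 arrays lay within a narrow band that overlapped the lower 2 controls, and 3 arrays of each group were well above background. The difference was -0.50 ± 0.26 (SE), with a 95% interval of -1.09 to 0.09 (adjusted p = 0.255, limma). Slides 1 to 3 gave -0.08, -0.80 and -1.07.

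Rspo2, which acts in limb and lung development, ran from -7.65 to -6.33 on the eGFP arrays and from -8.11 to -7.72 on the Hoxa9 arrays. It was not well above background on any array, so no fold is given although the groups did not overlap. Rspo3, known from placental and vascular development, was well above background on 2 arrays, replicate 3 of each group, at -5.37 with eGFP and -5.43 with Hoxa9. The remaining 6 arrays ran from -7.94 to -6.29 and were not well above background.

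The 2 ligases differed in what could be measured. Znrf3 stood at -2.81, -2.60, -2.50 and -1.99 on the eGFP arrays and at -1.85, -1.83, -1.55 and -1.74 on the Hoxa9 arrays, all well above background. The lowest Hoxa9 array was only 0.14 above eGFP array 4, the highest control. The difference was 0.73 ± 0.19 (SE), a 1.66-fold rise with a 95% interval of 1.22 to 2.26 (adjusted p = 0.0378, limma).

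Znrf3 was higher in 4 of 4 pairs, by 0.96, 0.76, 0.95 and 0.26, and on slides 1 to 3 by 0.97, 0.66 and 0.44, with 0.71 for the slide as a block. The call was close to the threshold: leaving out any array other than eGFP array 4 ended it, with adjusted p from 0.0558 to 0.108 (limma) and a difference of 0.62 to 0.77. Without eGFP array 4 the difference was 0.89 (adjusted p = 0.0114, limma). Without the filter on dim probes the adjusted p was 0.0602 (limma).

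Rnf43 stood at -4.33, -4.96, -6.16 and -4.96 on the eGFP arrays and at -5.58, -6.04, -6.62 and -5.48 on the Hoxa9 arrays. It was well above background on eGFP arrays 1, 2 and 4 and on no Hoxa9 array, 1 array short of the number needed for the test. Each Hoxa9 array was taken at the higher of its own value and the lowest signal well above background there. By the group means Rnf43 was then 1.54-fold lower with Hoxa9 in these samples. This is not a strict bound, since Hoxa9 arrays 1, 2 and 4 and eGFP array 3 entered at values not well above background. The groups overlapped, since eGFP array 3 lay below 3 of the Hoxa9 arrays. A fit without the filter did not call it (adjusted p = 0.329, limma), so a change of Rnf43 opposite to that of Znrf3 was not shown.

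**Figure D3:**
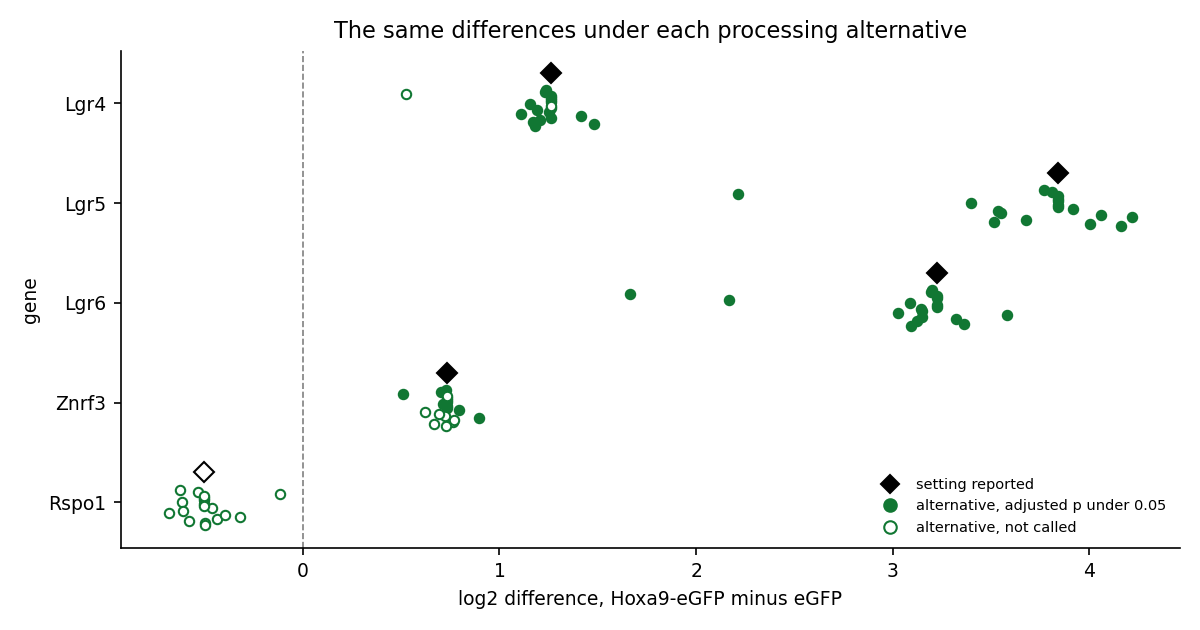
Difference of the 5 tested genes (x axis, log2, Hoxa9-eGFP minus eGFP) as reported (diamonds) and under each other way of processing or each array left out (circles, filled where adjusted p was under 0.05 in limma). Every circle of Lgr5 and Lgr6 is filled and at 1.66 or more, 2 of Lgr4 and 8 of Znrf3 are open, and every circle of Rspo1 is open and below 0.

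The rest of the Wnt pathway was read from a list of 83 other genes, of which 74 were tested. Of these 3 were called higher, 9 lower and 62 not called, a share of 16.2% against 15.2% of all genes. Their median difference was -0.06, against -0.07 over all genes. With the replicate number as a block 7 were called higher. The share called thus stood near the background, and the called genes are given here by role. By role 8 to 18 genes were tested and 0% to 25% called, so each share rests on few genes.

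Among 18 surface receptors and co-factors tested, 1 was called higher and 2 lower, a share of 16.7% against 15.2% of all genes. Fzd5, a Frizzled receptor of the kind Znrf3 and Rnf43 act on, rose by 2.27 ± 0.27 (SE; adjusted p = 0.000977, limma) at its probe of highest mean. The other Fzd5 probe differed by 0.52 (adjusted p = 0.23, limma), so the call of Fzd5 rests on 1 probe. That probe was the dimmer in eGFP (-3.57 against -2.86) and stood for the gene through its Hoxa9 level (-1.30 against -2.34). Its p is therefore not independent of how the probe was chosen. Fzd10, another Frizzled, fell by 1.16 (adjusted p = 0.0139, limma). The co-receptor Lrp6 differed by 0.48 and was not called (adjusted p = 0.0842, limma).

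Among 17 genes for Wnt ligands and their secretion, 2 were called higher and 2 lower, a share of 23.5% against 15.2% of all genes. Wls, which carries Wnts to the cell surface, rose by 0.83 (adjusted p = 0.00588, limma), and the ligand Wnt7b fell from 0.89 ± 0.21 (SD, n = 4) to -1.10 ± 0.37 (adjusted p = 0.000606, limma). Of 12 Wnt antagonist genes 1 was called, a share of 8.33%. It was Apcdd1, which encodes a membrane-bound inhibitor, and it fell by 1.53 (adjusted p = 0.00426, limma). None of 11 cytoplasmic genes, among them those for beta-catenin and its destruction complex, was called (limma), and 1, Btrc, had an unadjusted p under 0.05.

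At the nuclear end, 2 of 8 genes were called, both lower, a share of 25% against 15.2% of all genes in either direction. Lef1, a transcription factor that binds DNA with beta-catenin and is itself induced by Wnt signalling, fell from 2.87 ± 0.63 (SD, n = 4) to -0.63 ± 0.52, by 3.50 ± 0.37 (SE; adjusted p = 0.000563, limma), and its second probe fell by 3.49. Tcf7, of the same family, fell by 1.02 (adjusted p = 0.0184, limma). Lef1 thus fell while the Lgr receptors rose.

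Of 8 target genes tested 2 were called, both lower, a share of 25% against 15.2% of all genes in either direction. Cd44 fell by 1.37 (adjusted p = 0.00057, limma) and Ccnd1, which encodes cyclin D1, by 1.23 (adjusted p = 0.029, limma). Axin2, a widely used readout of Wnt signalling, gave unlike readings by probe. Its probe of highest mean, A_66_P134405, differed by -0.03 ± 0.53 (SE; adjusted p = 0.973, limma). Its other probe, A_55_P2000783, was well above background on no eGFP array and on all 4 Hoxa9 arrays, and was at least 2.71-fold higher with Hoxa9. It passed the filter through the Hoxa9 arrays alone, so no p is given for it. The mean of both probes was higher by 1.66, which includes the values under background. Neither probe of Axin2 showed a fall, but with an SE of 0.53 probe A_66_P134405 could have missed one.

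**Figure D4:**
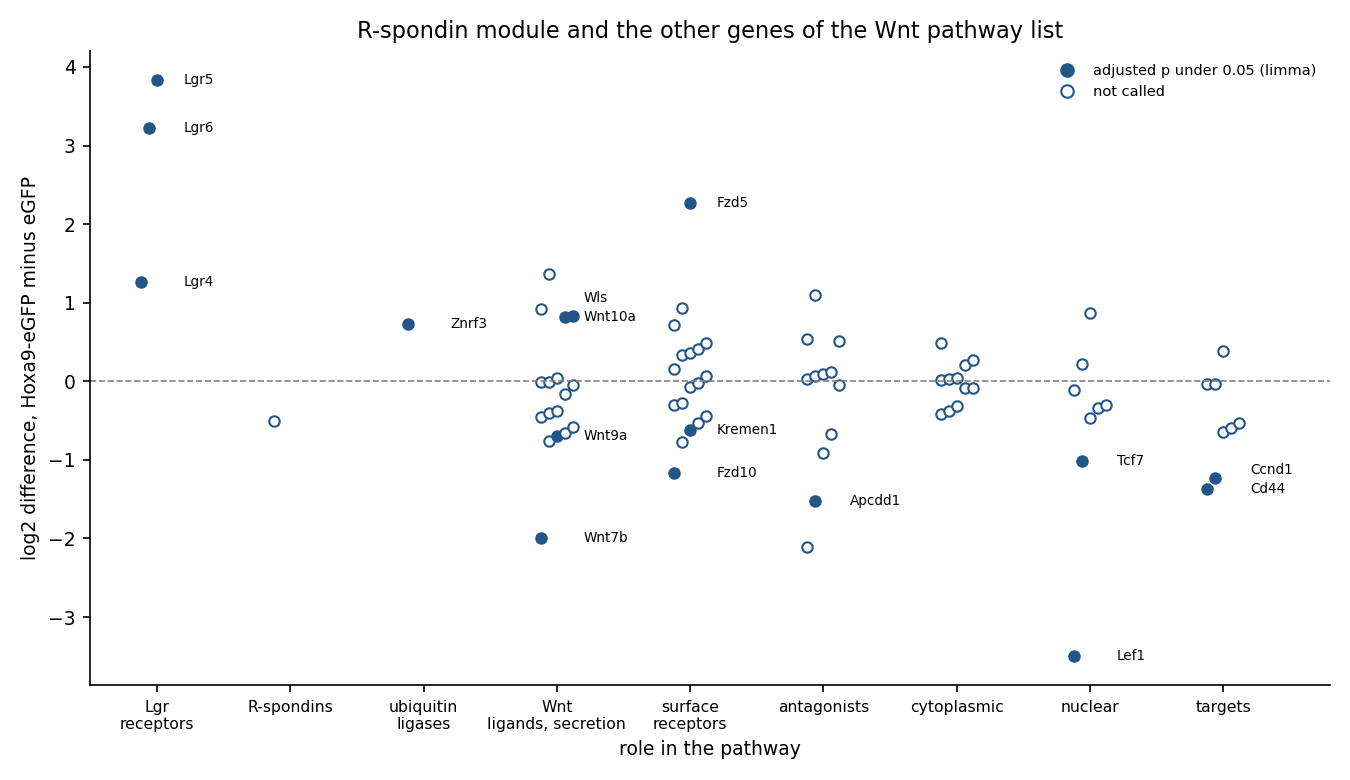
Difference of each tested gene (y axis, log2, Hoxa9-eGFP minus eGFP), grouped along the x axis by role in the pathway; filled points have an adjusted p under 0.05 (limma, over all genes) and carry their names. The 3 Lgr receptors lie at 1.26 or more, 62 of the other 74 genes are open points, and Lef1 is the lowest point at -3.50.

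Markers of other cells moved with the groups in part, and their part in the rises of the Lgr genes was not tested. Of 8 fibroblast genes (Pdgfra, Dcn, Lum, Col1a1, Col3a1, Ly6a, Thy1 and Postn) 1 was called, Ly6a, at 4.55 higher, a share of 12.5% against 15.2% of all genes. The others, not called, ran from -2.60 (Lum) to 1.62 (Thy1), with Pdgfra at -0.63 and Col3a1 at -0.46. All 8 were well above background on every eGFP array and 7 or 8 of them on each Hoxa9 array. Their summed signal, as multiples of the 75th percentile, was 15.3, 15.0, 22.0 and 23.9 on eGFP arrays 1 to 4 and 22.1, 23.0, 54.4 and 51.4 on Hoxa9 arrays 1 to 4. Lgr5 was highest on Hoxa9 arrays 1 and 2, where this sum was lowest in that group. Within the eGFP group Lgr5 was highest on arrays 3 and 4, where the sum was highest.

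The sums of 6 smooth muscle and pericyte genes were 86.1 to 143 in eGFP and 35.8 to 82.7 in Hoxa9-eGFP, and those of 6 glial genes 1.85 to 2.55 and 1.24 to 1.48. In each of these lists 1 gene was called, Acta2 (-1.32) and Ngfr (-1.99). The sum of 4 tendon genes was 47.4 to 67.6 and 19.9 to 27.1, nearly all of it Scx, which was called lower (-1.38), while Mkx (0.49) and Fmod (0.54) differed the other way without a call. The sums of 6 endothelial genes (8.93 to 14.5 and 11.5 to 17.6) and of 6 blood cell genes (32.7 to 51.4 and 32.8 to 48.1) overlapped between groups. The markers Ptprc (blood), Emcn (endothelium) and Tnmd (tendon) were well above background on 0 of the eGFP arrays, and on 2, 1 and 0 of the Hoxa9 arrays. Other markers of these lists were well above background on all 4 arrays of each group. They were Cd68, Itgam and Csf1r (blood), Pecam1 and Kdr (endothelium), and Scx and Mkx (tendon). Itgam stood at 5.04 in eGFP and 5.02 in Hoxa9-eGFP, and Kdr at 3.50 and 3.71. The remaining markers of the 3 lists were well above background on some arrays only.

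The genes whose profiles over the 8 arrays were nearest to those of the called genes were sought among 15801 genes with a RefSeq mRNA probe, by the root mean square distance of log2 levels centred on each gene's mean. For Lgr5 they were Ecrg4 (0.47), Sh3rf2 (0.56) and Pdgfrl (0.56), and for Lgr6 they were Wfdc2 (0.27), Phf21b (0.39) and Ifih1 (0.40). For Lgr4 they were Shc1, C1qtnf3 and Agtr1a (0.21 to 0.22). For Znrf3 they were Vsir, Gadd45a and Frat2 (0.10 to 0.13). All 12 were higher in the Hoxa9 group mean, by 0.70 to 4.48, as the likeness to a raised gene requires.

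Promoters were read for each of the 8 genes with an entry in the RefSeq promoter table (GRCm38.p6), which held Lgr4, Lgr6, Rspo1 and Rnf43. Those of Lgr4 and Lgr6 are shown as the 250 bases before the start, 5′ to 3′ on the gene's strand, at chr2:109917397-109917646 (plus strand) and chr1:135105277-135105526 (minus strand) of that build.
Lgr4: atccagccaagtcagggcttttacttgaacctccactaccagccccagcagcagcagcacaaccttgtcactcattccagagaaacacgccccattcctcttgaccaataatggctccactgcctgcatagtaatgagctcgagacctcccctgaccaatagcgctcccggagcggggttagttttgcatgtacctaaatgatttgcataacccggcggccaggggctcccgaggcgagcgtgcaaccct
Lgr6: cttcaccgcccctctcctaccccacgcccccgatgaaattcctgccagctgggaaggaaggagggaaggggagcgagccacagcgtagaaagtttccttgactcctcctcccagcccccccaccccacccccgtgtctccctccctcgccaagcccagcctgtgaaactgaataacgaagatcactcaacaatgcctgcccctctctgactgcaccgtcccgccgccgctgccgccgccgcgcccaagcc

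The Lgr6 stretch had 65.2% GC and the Lgr4 stretch 55.6%, against a median of 52.4% over all promoters of the table. Both strands were searched for TTTATG and TTTACG, letters that posterior Hox proteins bind, TGATTTA, bound by Hox with Pbx, and CTTTGAA and CTTTGAT, bound by Tcf and Lef factors. None of the 5 motifs was found in either stretch, nor before the starts of Rspo1 and Rnf43, which is why no letters are in capitals. Of 32851 promoters of the same length 10.8% held TTTATG, 2.62% TTTACG, 2.61% TGATTTA, 4.46% CTTTGAA and 3.21% CTTTGAT. The absence says only that these letters are not in these windows.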

How the data were processed

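Cy3-labelled cRNA from 0.1 ug of RNA of 8 samples (4 eGFP, 4 Hoxa9-eGFP) was hybridised to one-colour arrays, per the labels' protocols. The deposited intensity values are scanner output of Agilent Feature Extraction 10.7.3.1, per the file headers: background-subtracted, detrended and not scaled between arrays. Probe positions are in mm9. A second deposited table held values treated here as a score: log2 signals plus a constant per array, unstated in scale, with decimal points missing from 86.1% to 87.3% of cells. Once the points were restored, at least 99.998% of values per array matched log2 signal plus that constant within 0.05, and the table had column medians of -3.36 to -2.95. It was an alternative only.

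Signals were taken to log2 minus the array's 75th percentile (514 to 779 units), without control and outlier spots (180 of 55681 probes lost), averaging repeated spots. The filter left 40773 probes, and the probe of highest mean stood for its gene. The groups were fitted in limma 3.58.1 (R 4.3.3; lmFit, eBayes, two-sided, group only, threshold 0.05), by gene and by probe, after a test on simulated data. For a probe well above background on no array of a group, a bound uses on those arrays the lowest signal judged well above background, or the probe's own if higher. RefSeq accessions matched 27542 probes.

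The genes, lists, alternatives and naming rule were chosen with earlier results of these data known. The rule names all 8 genes and every probe, Hoxa9, Pax7, Myod1, Lef1 and Axin2, up to 2 called genes of lowest adjusted p per pathway list, and the 3 nearest profiles of each called gene. Lrp6, Btrc and the marker genes were added after their values were seen.

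Slides 1, 2 and 3 held 2, 1 and 1 eGFP arrays and 1, 2 and 1 Hoxa9 arrays. Both groups share experiment numbers. Same-numbered arrays deviated together (correlations of 0.14, 0.23, 0.13 and 0.19, each over the limit of 0.1). Of unlike-numbered arrays, eGFP 4 with Hoxa9 3 (0.19, on 1 slide) and eGFP 3 with Hoxa9 4 (0.14) also exceeded it. Same-numbered arrays were treated as pairs in the pairwise differences and the replicate block only. The adjusted p-values and intervals reported came from the group-only fit, which leaves the pairs out. With the replicate block the adjusted p was 0.0289 for Lgr5, 0.00989 for Lgr6, 0.0609 for Lgr4 and 0.0471 for Znrf3 (limma). The alternatives changed the normalization (quantile, median shift), the background correction (normexp, offset 50), the filter (none, or all 8 arrays), the values (deposited table), the probes (averaged by gene), the model (slide block, replicate block, trended robust prior, array weights, whose estimation did not fully converge) or the arrays (each left out).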

Additional observations from a re-analysis of the deposited data

Results flagged for a closer look

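In the Hoxa9-eGFP group 1 array stood apart from the others for Lgr4. Replicate 3 gave -3.63, and the other 3 arrays gave -2.81, -2.73 and -2.70. The gap to its nearest neighbour made up 0.884 of the group's range, above the 95% critical value of Dixon's test for 4 samples. Of the 10 probes in 2 groups, 20 sets of 4 arrays were examined, and chance marks about 1 in 20 of such sets. Without that array the difference of Lgr4 was 1.48 rather than 1.26, and the gene was still called. The same array gave Lgr5 -1.25, inside the range of the other Hoxa9 arrays, Lgr6 -1.92, the lowest of its group, and Znrf3 -1.55, the highest of its group. The reason was not tested.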

How the results depend on the processing

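Lgr5 and Lgr6 kept their direction and their call under each alternative that tested them. Their differences ranged from 2.21 to 4.22 and from 1.66 to 3.58, the lowest values with normexp correction. The stricter filter, all 8 arrays well above background, removed both from the test, so that 2 of the 8 genes, Lgr4 and Znrf3, were called higher. Leaving out 1 array left 3 or 4 called higher, since only Znrf3 was lost. Lgr4 missed the threshold in 2 of 19 alternatives, normexp and the replicate block, and Znrf3 in 8 of 19. With p-values adjusted over probes, Lgr4 (adjusted p = 0.0186, limma) was also lost without eGFP array 2 or Hoxa9 array 1 or 4 (differences of 1.11, 1.21 and 1.18). There Znrf3 (adjusted p = 0.0439, limma) was lost also with a median shift (difference 0.70), normexp (0.51), and the slide (0.71) or replicate (0.73) as a block. The replicate block changed no other call of the 8 genes. In the Wnt list the number called higher was 3, and 5 with quantile normalization, the all-8 filter or array weights, 7 with the replicate block, and 2 to 3 when 1 array was left out; 6 to 9 were then called lower. Over all genes 1582 to 1902 were called higher and 1289 to 1893 lower with 1 array left out, the lowest without eGFP array 2, against 2123 and 2011. Signal over background kept Lgr5 A_52_P30169, Rspo2, Rspo3 and Rnf43 out of the test. No size of a difference is given for the first 3, and for Rnf43 only a fold whose means include values not well above background. It also limits the sizes for Lgr5 A_55_P2126192, both Lgr6 probes and Rspo1, whose means include eGFP array 2, not well above background there. For Rspo1 the same holds of Hoxa9 array 1. With normexp the folds of Lgr5 A_55_P2126192 and Lgr6 A_52_P75777 were 4.63 and 3.17, rather than 14.3 and 9.36. Both lay below the lower ends of the intervals reported for them, 5.56 and 5.17. The causes were not tested.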
